A study of Mus musculus with 40 samples.

Results

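Integrins and laminins are a set of 36 genes, taken by symbol from the 23228 symbols that all 8 RNA files share: 18 integrin α chains, 8 integrin β chains, and 5 α, 3 β and 2 γ chains of laminin. The members were found by name alone, but the set itself was picked with earlier results of these data known. RNA-seq was done on mouse embryonic stem (ES) cells of a C57BL/6 (mixed) background, in 4 groups of 2 libraries. They were RA-treated cells homozygous for the GLP 3A mutation, RA-treated wild-type cells, untreated GLP 3A cells and untreated wild-type cells. GLP, the product of Ehmt1, is a histone H3 lysine 9 methyltransferase, and the series asks about its part in propagating histone marks. RA stands for all-trans retinoic acid, a differentiation signal, given at 1 uM with LIF, a self-renewal factor, taken away at the same moment. Differences with RA are therefore differences with both steps, whose effects cannot be told apart, and the sources used here give no length of treatment. All cells had been grown on feeder cells in serum with LIF and then for 2 passages without feeders in 2i, a medium that holds stem cells undifferentiated. Nothing says that the 2 replicates of a group were separate cultures or clones, so p-values measure the spread between these libraries, which may be technical.

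Integrins are receptors of the cell surface made of one α and one β chain; outside the cell they bind matrix proteins, and inside they attach to the actin or keratin cytoskeleton. Laminins are secreted trimers of one α, one β and one γ chain that form the basement membrane, the sheet of matrix on which epithelia and endoderm rest. In the early mouse embryo, laminins containing the chains Lama1, Lamb1 and Lamc1 are among the earliest matrix proteins, and parietal endoderm secretes them in large amounts.

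The values are RPKM, read numbers adjusted for the size of the gene and of the library, so levels of different genes can be set side by side. Replicate 1 libraries were about as deep as one another and replicate 2 libraries shallower: relative to untreated wild-type replicate 1, the estimated depths of replicate 1 lay between 0.962 and 1.24 and those of replicate 2 between 0.436 and 0.575. A low value therefore rests on fewer reads in replicate 2. Ehmt1 had 13.0 and 13.9 RPKM in RA-treated GLP 3A cells, 24.4 and 23.5 in RA-treated wild-type cells, 14.1 and 14.3 in untreated GLP 3A cells and 18.4 and 17.6 in untreated wild-type cells; the libraries labelled GLP 3A were below the wild-type ones in both conditions, and RPKM does not show the mutation itself. Pou5f1, a transcription factor of pluripotent cells, had 27.7 and 10.7 RPKM in RA-treated GLP 3A cells, 14.5 and 2.20 in RA-treated wild-type cells, 1022 and 1004 in untreated GLP 3A cells and 1183 and 1250.4 in untreated wild-type cells, so it was high in the untreated libraries and low in every library labelled RA. Between replicates, tested members 2-fold or more apart on the log2(RPKM + 1) scale numbered 2 in RA-treated GLP 3A cells (Itgb8 and Lama1), 3 in wild-type cells with RA (Lama1, Lamb1 and Lamc1), and 0 in the untreated groups.

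Of the 36 members, 24 reached 1 RPKM in at least 2 libraries and were tested, and these are not all members. Itga2b, Itga7, Itga8, Itgb3, Itgb8 and Lama4 reached 1 RPKM in RA-treated libraries only, and Itga1, Itgal and Itgb7 in untreated ones only, so these 9 passed through the condition in which they were high. The other 12, Itga2, Itga4, Itga10, Itga11, Itgad, Itgae, Itgam, Itgax, Itgb2, Itgb6, Lama2 and Lamc3, were not tested. Among these 12 the highest value was 1.09 RPKM, for Itga10 in untreated GLP 3A replicate 2. Itgb2, the β chain shared by the leukocyte integrins, had 0.895 and 0.874 RPKM in RA-treated GLP 3A cells, 0.340 and 0.402 in RA-treated wild-type cells, 0.128 and 0.136 in untreated GLP 3A cells and 0.0916 and 0.116 in untreated wild-type cells. Itgad and Itgax, α chains of myeloid cells, were listed at 0 in every library but 1 each. Reads could be shared with genes that overlap Itga1 (Pelo), Itga4 (Cerkl), Itga7 (Mettl7b), Itga8 (E030013I19Rik), Itgad (4931431B13Rik and Cox6a2), Itgae (Gsg2) and Itgb4 (Galk1), so the values of these members are uncertain.

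Promoter windows of some of the members that lead the results below are shown for their sequence context. RefSeq windows of 300 bases on GRCm38.p6, from 250 before to 50 after a gene's start, were found for 23 of the 36 members, in 26 windows. Capitals mark a GC box (GGGCGG or its reverse complement CCGCCC) or a CCAAT box (CCAAT or ATTGG). Itgb1 and Itga3 are the 2 integrin chains with the largest rise with RA in wild type on the log2(RPKM + 1) scale, which understates low genes. By the ratio of mean RPKM, Itgb8 and Itga8 rose more. Lamb1 is a laminin chain that was higher with RA in both genotypes, and Itgb7 is the member that fell most.
Itgb1, chr8:128685404-128685703, plus strand: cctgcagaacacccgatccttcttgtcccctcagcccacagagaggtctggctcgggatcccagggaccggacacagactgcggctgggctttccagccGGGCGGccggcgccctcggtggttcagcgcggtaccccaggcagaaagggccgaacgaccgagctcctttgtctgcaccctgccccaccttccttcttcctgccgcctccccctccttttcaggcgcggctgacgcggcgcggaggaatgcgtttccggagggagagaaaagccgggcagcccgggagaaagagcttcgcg
Itga3, chr11:95076665-95076964, minus strand, the more upstream of 2 starts: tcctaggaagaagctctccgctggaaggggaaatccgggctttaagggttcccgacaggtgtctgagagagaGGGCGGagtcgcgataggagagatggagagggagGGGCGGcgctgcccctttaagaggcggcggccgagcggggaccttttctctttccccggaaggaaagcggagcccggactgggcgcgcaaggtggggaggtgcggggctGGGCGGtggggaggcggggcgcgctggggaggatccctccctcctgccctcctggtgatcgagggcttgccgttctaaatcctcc
Lamb1, chr12:31265043-31265342, plus strand: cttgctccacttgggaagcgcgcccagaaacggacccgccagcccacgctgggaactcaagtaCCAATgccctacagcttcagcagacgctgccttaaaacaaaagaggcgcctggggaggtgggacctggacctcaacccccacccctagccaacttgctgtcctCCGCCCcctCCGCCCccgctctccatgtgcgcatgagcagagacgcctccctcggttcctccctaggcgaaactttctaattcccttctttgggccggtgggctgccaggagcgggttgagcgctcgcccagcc
Itgb7, chr15:102231886-102232185, minus strand: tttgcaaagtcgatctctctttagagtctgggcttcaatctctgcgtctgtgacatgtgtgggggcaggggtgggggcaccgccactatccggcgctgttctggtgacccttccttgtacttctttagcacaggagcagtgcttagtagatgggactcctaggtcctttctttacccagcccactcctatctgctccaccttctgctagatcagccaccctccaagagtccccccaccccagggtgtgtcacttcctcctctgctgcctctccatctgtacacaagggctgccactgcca
The Itgb1 window holds 1 GC box and the Itga3 window 3. The Lamb1 window holds 2 GC boxes read on the opposite strand and 1 CCAAT box, and the Itgb7 window neither. The window of Lamb2, which also rose with RA in both genotypes, is not printed and holds neither, at 44.0% GC. Over all 26 member windows, 12 held a GC box, against 35.7% of 32851 RefSeq windows, and 4 a CCAAT box, against 37.4%. The nuclear receptor half-site AGGTCA, searched on both strands, was in 0 of the 26 and in 16.3% of all windows, and the TATA box TATAAA was in 0 and in 13.6%. The AP-1 site TGANTCA was in 3 of the 26 and in 7.81% of all windows. The letters AGATAA, which GATA factors are known to bind, were in 1 and in 11.2%. These counts describe the letters of these windows only.

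With RA, Itgb1, Itga3, Itga5, Itgav, Lamb1 and Lamb2 were among the members that rose in both genotypes, and Itgb5, Itgb7, Itga6, Itgal and Lama3 fell in both. Of the 24 tested, 14 were higher and 6 lower in GLP 3A cells, where 70.4% of all 13198 tested genes were called, 32.3% higher and 38.1% lower. In wild-type cells 14 were higher and 5 lower, where 68.5% of all genes were called, 33.7% higher and 34.8% lower. In either direction the members' 20 and 19 of 24 are little above these backgrounds. The filter favoured a direction for the 6 members that reached 1 RPKM with RA only and the 3 that did so untreated only. In GLP 3A all 6 were called higher and all 3 lower. In wild type 5 of the 6 were higher, and of the 3, 2 were lower and 1 higher. The exceptions, Itga7 (not called) and Itga1 (higher), passed the filter through GLP 3A libraries only. The balance of directions over the 24 is therefore a description. Of the 15 members that reached 1 RPKM in both conditions, 8 were higher and 3 lower in each genotype, with medians of 1.25 in GLP 3A and 0.70 in wild-type cells. Of the 13 members at 5 RPKM or more in at least 2 libraries, 6 were higher and 4 lower in GLP 3A and 7 higher and 4 lower in wild-type cells. The median log2 difference of all 24 was 1.13 in GLP 3A and 0.64 in wild-type cells, beside -0.07 and -0.03 over all tested genes. A call here is an adjusted p under 0.05 in limma's moderated test on log2(RPKM + 1), adjusted over all tested genes; differences below are RA minus untreated on that scale with their standard errors, and they understate the change of low genes.

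**Figure D1:**
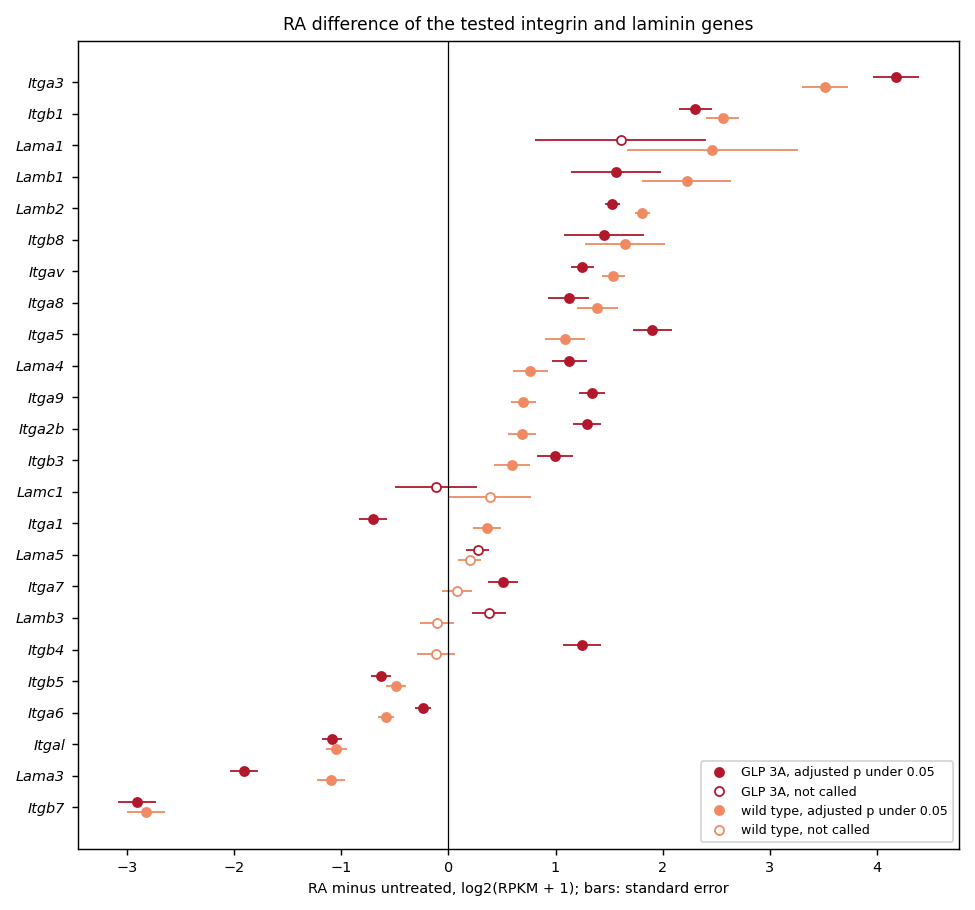
RA difference of the 24 tested members on the log2(RPKM + 1) scale (x axis) in GLP 3A cells (dark points) and wild-type cells (light points); bars are standard errors and filled points are called. Itga3 and Itgb1 lie at the top and Itgb7 at the bottom in both genotypes, and Itgb4 is called in GLP 3A cells only, a contrast whose own test was not called (adjusted p = 0.0561).

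The β1 chain was the main β chain in every group and rose in both genotypes. Itgb1 (mm9 chr8:131209553-131257479), the partner of most α chains, had 188 and 224 RPKM in RA-treated GLP 3A cells, 173 and 235 in RA-treated wild-type cells, 40.6 and 40.9 in untreated GLP 3A cells and 34.1 and 32.8 in untreated wild-type cells. All 4 RA-treated libraries were above all 4 untreated ones, and in both genotypes replicate 2 was the higher RA library. The difference with RA was 2.30 ± 0.15 (adjusted p = 4.86e-05) in GLP 3A and 2.56 ± 0.15 (adjusted p = 3.34e-05) in wild-type cells, ratios of mean RPKM of 5.06 and 6.11.

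Itgb7 (mm9 chr15:102046425-102062366), whose product pairs with α4 and αE on lymphocytes, had 0.824 and 0.344 RPKM in RA-treated GLP 3A cells, 0.506 and 0.209 in RA-treated wild-type cells, 11.3 and 10.2 in untreated GLP 3A cells and 8.84 and 8.27 in untreated wild-type cells. Every RA-treated library was below 1 RPKM and every untreated one above 8 RPKM. It fell by 2.91 and 2.82 on this scale in GLP 3A and wild-type cells (SE 0.18 in each, adjusted p = 3.61e-05 and 3.9e-05). Its partner genes Itga4 and Itgae were at or under 0.826 RPKM in every library, while Itgb7 was the third most abundant β chain of the untreated cells.

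Itgb5 and Itgb8, further β chains of αv integrins, differed in opposite directions. Itgb5, a vitronectin receptor chain, ranged over 10.2 to 12.5 RPKM in the 4 RA-treated and 15.1 to 18.6 RPKM in the 4 untreated libraries, with differences of -0.63 ± 0.09 (adjusted p = 0.0012) in GLP 3A and -0.49 ± 0.09 (adjusted p = 0.00373) in wild-type cells. Itgb8 (mm9 chr12:120401275-120476749), whose αv dimer binds latent TGF-β, had 0.806 and 3.17 RPKM in RA-treated GLP 3A cells, 1.82 and 2.79 in RA-treated wild-type cells, 0.00944 and 0 in untreated GLP 3A cells and 0.0447 and 0.0364 in untreated wild-type cells. It was near 0 in the untreated libraries, and the 2 RA-treated GLP 3A libraries were far apart. Its differences were 1.45 ± 0.37 (adjusted p = 0.0127) and 1.65 ± 0.37 (adjusted p = 0.0077) in GLP 3A and wild type. The GLP 3A call ended without either untreated GLP 3A library (adjusted p = 0.0526 and 0.0537). The value was 0.85 when RA-treated GLP 3A replicate 2 was left out (adjusted p = 0.011).

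The low β chains Itgb3 and Itgb4 did not behave alike. Itgb3, the β chain of the platelet fibrinogen and αv vitronectin receptors, ranged over 0.717 to 2.32 RPKM in the RA-treated and 0.228 to 0.457 RPKM in the untreated libraries, with differences of 0.99 ± 0.17 (adjusted p = 0.00211) in GLP 3A and 0.59 ± 0.17 (adjusted p = 0.0192) in wild type. In wild type that call ended without either untreated wild-type library (adjusted p = 0.0684 and 0.0863), without RA replicate 1 (0.0939) and after quantile normalization (0.398). Itgb4 (mm9 chr11:115836038-115874033), the hemidesmosome chain that pairs with α6, had 7.12 and 4.57 RPKM in RA-treated GLP 3A cells, 2.76 and 2.45 in RA-treated wild-type cells, 1.90 and 1.77 in untreated GLP 3A cells and 2.99 and 2.83 in untreated wild-type cells. Both RA-treated GLP 3A libraries were the highest, and the RA-treated wild-type ones were slightly below the untreated wild-type ones. The difference with RA was 1.25 ± 0.18 (adjusted p = 0.000973) in GLP 3A and -0.12 ± 0.18 (adjusted p = 0.58) in wild type, where it was not called. Galk1, which overlaps Itgb4, had 73.8 to 90.3 RPKM in the RA-treated and 88.7 to 111 RPKM in the untreated libraries.

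Among the α chains, Itga3 rose the most. Itga3 (mm9 chr11:94905795-94938028), the α chain of a β1 receptor for laminins that contain the α3 or α5 chain, had 161 and 98.9 RPKM in RA-treated GLP 3A cells, 84.0 and 72.6 in RA-treated wild-type cells, 6.32 and 5.76 in untreated GLP 3A cells and 5.91 and 5.89 in untreated wild-type cells. The lowest RA-treated library was over 10 times the highest untreated one. The difference was 4.18 ± 0.22 (adjusted p = 2.1e-05) in GLP 3A and 3.52 ± 0.22 (adjusted p = 3.6e-05) in wild type, ratios of mean RPKM of 21.6 and 13.3.

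Itga6 (mm9 chr2:71625139-71694815), the other main laminin-binding α chain and a surface marker of stem cells, had 18.6 and 19.5 RPKM in RA-treated GLP 3A cells, 18.8 and 20.3 in RA-treated wild-type cells, 22.0 and 23.3 in untreated GLP 3A cells and 30.9 and 28.6 in untreated wild-type cells. The RA-treated libraries of the 2 genotypes lay together, under all untreated ones, and untreated wild type was highest. It fell by 0.58 (SE 0.08, adjusted p = 0.000692) in wild type. In GLP 3A it fell by 0.24 (SE 0.08, adjusted p = 0.0293), a call that ended without either untreated GLP 3A library (adjusted p = 0.0655 and 0.153), when RA-treated GLP 3A replicate 1 was left out (0.0955), and under median-of-ratios (0.0936) and quantile (0.311) scaling. The third laminin-binding α chain, Itga7, known from muscle, ranged over 0.488 to 1.45 RPKM. Its difference was 0.51 ± 0.14 (adjusted p = 0.0176) in GLP 3A, and it was not called in wild type. The GLP 3A call ended without either untreated GLP 3A library (adjusted p = 0.0588 and 0.0824), when RA-treated GLP 3A replicate 1 was left out (0.0591), and after quantile normalization (0.687).

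The α chains of receptors for RGD-containing matrix proteins, such as fibronectin and vitronectin, were higher with RA. Itga5 (mm9 chr15:103174717-103197179), the fibronectin receptor chain, had 34.5 and 22.2 RPKM in RA-treated GLP 3A cells, 26.3 and 24.7 in RA-treated wild-type cells, 6.67 and 6.67 in untreated GLP 3A cells and 11.3 and 11.7 in untreated wild-type cells. The RA-treated libraries of both genotypes overlapped, while untreated GLP 3A lay below untreated wild type. Its differences were 1.90 ± 0.18 (adjusted p = 0.000193) in GLP 3A and 1.09 ± 0.18 (adjusted p = 0.00224) in wild type. Itgav (mm9 chr2:83564553-83647073), the αv chain that pairs with β1, β3, β5, β6 and β8, had 9.65 and 9.39 RPKM in RA-treated GLP 3A cells, 10.5 and 11 in RA-treated wild-type cells, 3.25 and 3.60 in untreated GLP 3A cells and 3.42 and 2.71 in untreated wild-type cells. The RA-treated libraries were all above the untreated ones, by 1.25 ± 0.11 (adjusted p = 0.000115) in GLP 3A and 1.54 ± 0.11 (adjusted p = 5.46e-05) in wild type. Itga8, a β1 partner that binds nephronectin in the kidney, had 1.26 and 2.39 RPKM in RA-treated GLP 3A cells, 1.71 and 1.90 in RA-treated wild-type cells, 0.272 and 0.264 in untreated GLP 3A cells and 0.0854 and 0.0573 in untreated wild-type cells, with differences of 1.13 ± 0.19 (adjusted p = 0.00216) and 1.39 ± 0.19 (adjusted p = 0.000894) in GLP 3A and wild type. Itga2b, the platelet α chain and β3 partner, had 2.10 and 1.67 RPKM in RA-treated GLP 3A cells, 1.37 and 1.13 in RA-treated wild-type cells, 0.134 and 0.217 in untreated GLP 3A cells and 0.324 and 0.478 in untreated wild-type cells. It was higher with RA by 1.29 ± 0.13 (adjusted p = 0.000222) in GLP 3A and 0.68 ± 0.13 (adjusted p = 0.00358) in wild type, and quantile normalization ended the wild-type call (adjusted p = 0.0964).

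The remaining α chains were low. Itga9, a β1 partner for tenascin and other ligands, had 3.46 and 3.62 RPKM in RA-treated GLP 3A cells, 3.25 and 2.50 in RA-treated wild-type cells, 0.814 and 0.774 in untreated GLP 3A cells and 1.46 and 1.29 in untreated wild-type cells, and was higher with RA by 1.34 ± 0.12 (adjusted p = 0.000135) in GLP 3A and 0.70 ± 0.12 (adjusted p = 0.00222) in wild type. Itgal, the α chain of the leukocyte integrin LFA-1, had 0.440 and 0.418 RPKM in RA-treated GLP 3A cells, 0.121 and 0.0579 in RA-treated wild-type cells, 2.06 and 2.01 in untreated GLP 3A cells and 1.30 and 1.20 in untreated wild-type cells. All RA-treated libraries were under all untreated ones, and it fell by 1.09 in GLP 3A and 1.05 in wild type (SE 0.10 in each, adjusted p = 0.000137 and 0.000168). Itga1 (mm9 chr13:115748288-115892172), a collagen receptor chain, had 0.679 and 0.590 RPKM in RA-treated GLP 3A cells, 0.774 and 0.626 in RA-treated wild-type cells, 1.42 and 1.92 in untreated GLP 3A cells and 0.258 and 0.389 in untreated wild-type cells. Untreated GLP 3A libraries were the highest and untreated wild-type ones the lowest, with the RA-treated libraries between them. It fell by 0.70 (SE 0.13, adjusted p = 0.0035) in GLP 3A, and its difference in wild type was 0.36 ± 0.13 (adjusted p = 0.0491). That wild-type call ended without 7 of the 8 libraries in turn, all but untreated GLP 3A replicate 1 (adjusted p = 0.0505 to 0.212), and quantile normalization turned its sign to -0.04. Pelo, which overlaps Itga1, had 22.3 to 24.5 RPKM in the RA-treated and 22.9 to 29.0 RPKM in the untreated libraries.

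**Figure D2:**
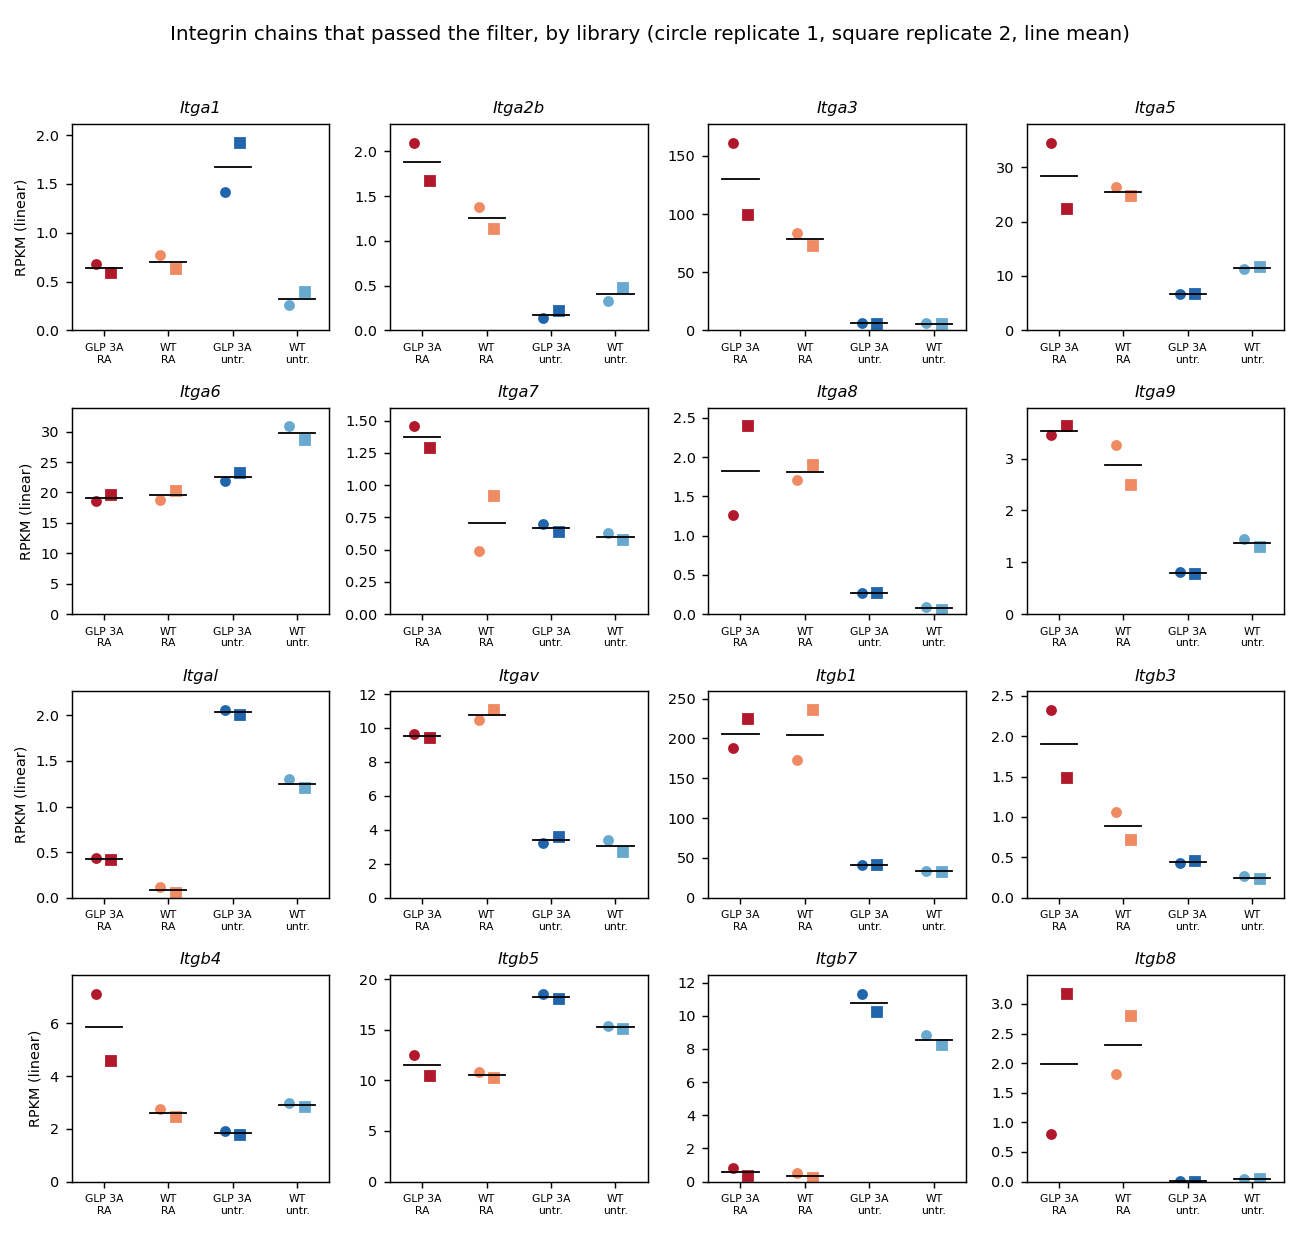
RPKM of the 16 tested integrin chains (y axis, linear, from 0) in each library by group; circles are replicate 1, squares replicate 2 and lines group means. Itgb1, Itga3 and Itgav are higher in all 4 RA-treated libraries, Itgb7 and Itgal are lower, and Itga1 is highest in the 2 untreated GLP 3A libraries.

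These changes altered which chains held most of the integrin RNA. Itgb1 made up 88.3% and 91.4% of the summed β chain RPKM in RA-treated GLP 3A and 90.8% and 93.3% in RA-treated wild-type libraries, against 55.6% and 57.2% in untreated GLP 3A and 55.2% and 55.2% in untreated wild-type libraries. The share of Itgb5 was 4.06% to 5.90% in the RA-treated and 25.0% to 25.4% in the untreated libraries, and that of Itgb7 0.0829% to 0.387% and 13.9% to 15.5%. Among α chains, Itga3 held 68.6% and 61.0% in RA-treated GLP 3A and 56.4% and 52.9% in RA-treated wild-type libraries, against 14.0% and 12.3% in untreated GLP 3A and 10.3% and 10.8% in untreated wild-type libraries. Itga6 was the most abundant α chain of the untreated cells, at 48.8% to 54.0%, and held 7.90% to 14.8% with RA. The α chain sum was 137 to 235 RPKM in the RA-treated and 45.0 to 57.1 RPKM in the untreated libraries, and the β chain sum 191 to 252 and 59.4 to 73.0 RPKM.

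**Figure D3:**
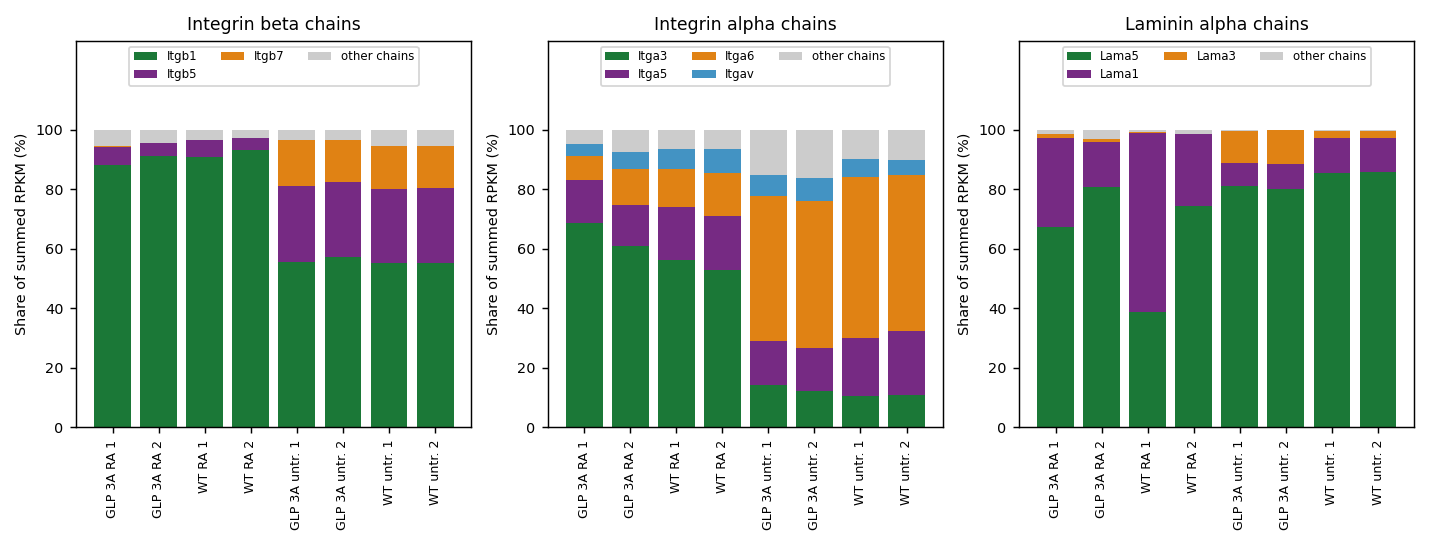
Share of the summed RPKM (y axis, %) held by named chains among all integrin β, integrin α and laminin α chains in each library; grey is the other chains. Itgb1 and Itga3 hold the larger part in the 4 RA-treated libraries, and Lama1 holds 60.3% of laminin α chains in RA-treated wild-type replicate 1, the highest of the 8.

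Among laminins, the β chains Lamb1 and Lamb2 rose with RA, Lama5 and Lamc1 were abundant in all groups, and the epithelial chain Lama3 fell. Of the 8 tested laminin chains, 3 were higher and 1 lower in GLP 3A and 4 higher and 1 lower in wild-type cells. Of all genes, 32.3% and 33.7% were called higher and 38.1% and 34.8% lower in GLP 3A and wild type, so these counts are not read as a property of laminins. Lamb2 (mm9 chr9:108382192-108392861), a β chain of neuromuscular, kidney and other basement membranes, had 20.6 and 19.3 RPKM in RA-treated GLP 3A cells, 26.1 and 24.8 in RA-treated wild-type cells, 6.29 and 6.22 in untreated GLP 3A cells and 6.40 and 6.68 in untreated wild-type cells. Its replicates lay close together, and it was higher with RA by 1.53 ± 0.07 (adjusted p = 1.48e-05) in GLP 3A and 1.81 ± 0.07 (adjusted p = 8.66e-06) in wild type. Lamb1 (mm9 chr12:31950158-32014504), the main β chain of the early embryo, had 85.7 and 57.1 RPKM in RA-treated GLP 3A cells, 165 and 64.6 in RA-treated wild-type cells, 23.6 and 22.4 in untreated GLP 3A cells and 22.4 and 20.4 in untreated wild-type cells. All RA-treated libraries were above the untreated ones, and RA-treated wild-type replicate 1 was far above the other 3. The difference was 1.56 ± 0.42 (adjusted p = 0.0148) in GLP 3A and 2.22 ± 0.42 (adjusted p = 0.00355) in wild type. The GLP 3A call ended without either untreated GLP 3A library (adjusted p = 0.0555 and 0.0629) and when RA-treated GLP 3A replicate 1 was left out (difference 1.28, adjusted p = 0.0716).

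Lama1 and Lamc1, the usual partners of Lamb1, were also highest in RA-treated wild-type replicate 1. Lama1 (mm9 chr17:68046604-68171985) had 24.4 and 8.95 RPKM in RA-treated GLP 3A cells, 99.3 and 17.2 in RA-treated wild-type cells, 4.07 and 4.36 in untreated GLP 3A cells and 6.83 and 6.67 in untreated wild-type cells. In both genotypes replicate 1 was the higher RA-treated library, by several fold in wild type. The difference was 1.61 ± 0.80 (adjusted p = 0.114) in GLP 3A, not called, and 2.46 ± 0.80 (adjusted p = 0.0314) in wild type. In the 4 wild-type libraries alone the same 2.46 was not called (adjusted p = 0.0547), nor with no filter on low values (0.101). The GLP 3A value was called, at the same 1.61, without either RA-treated wild-type library (adjusted p = 0.0197 and 0.0196) and in the 4 GLP 3A libraries alone (0.0487). With only replicate 2 of the RA-treated groups it was called at 0.93 (0.000924). The wild-type call ended when RA-treated wild-type replicate 1 was left out (difference 1.23, adjusted p = 0.0928; 3.69 without replicate 2), without either untreated wild-type library (0.103 and 0.105), without either untreated GLP 3A library (0.0532 and 0.0530), and with robust empirical Bayes (0.0778). Lamc1 (mm9 chr1:155066051-155179916), the γ chain of most laminins, had 75.5 and 49.1 RPKM in RA-treated GLP 3A cells, 198 and 86.3 in RA-treated wild-type cells, 66.8 and 64.9 in untreated GLP 3A cells and 102 and 97.9 in untreated wild-type cells. RA-treated wild-type replicate 1 was the highest and replicate 2 lay under both untreated wild-type libraries. The difference was -0.11 ± 0.38 (adjusted p = 0.812) in GLP 3A and 0.39 ± 0.38 (adjusted p = 0.403) in wild type, neither called, and the wild-type value was -0.21 when that replicate 1 library was left out (adjusted p = 0.491).

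Some genes of other basement membrane proteins and of endoderm were also higher in replicate 1 of both RA-treated groups, and others were higher in replicate 2. The genes named here were chosen after their values were seen. Col4a1, a collagen IV chain of basement membranes, had 66.0 and 27.0 RPKM in RA-treated GLP 3A cells, 166 and 30.8 in RA-treated wild-type cells, 1.75 and 2.19 in untreated GLP 3A cells and 2.05 and 1.80 in untreated wild-type cells. Gata4, a transcription factor of endoderm and heart, had 8.32 and 2.13 RPKM in RA-treated GLP 3A and 20.0 and 2.90 in RA-treated wild-type libraries. Cubn, a receptor of visceral endoderm, had 4.32 and 0.593 in RA-treated GLP 3A and 15.6 and 0.624 in RA-treated wild-type libraries. Col4a6, another collagen IV chain, was higher in replicate 2, with 1.84 and 3.22 RPKM in RA-treated GLP 3A and 0.194 and 0.248 in RA-treated wild-type libraries. So was Smoc2, with 5.91 and 12.4 RPKM in RA-treated GLP 3A and 13.6 and 17.0 in RA-treated wild-type libraries. Over the 12 listed markers of parietal and visceral endoderm, the summed RPKM was 84.6 and 63.9 in RA-treated GLP 3A and 182 and 89.6 in RA-treated wild-type libraries, against 3.15 and 4.05 in untreated GLP 3A and 2.65 and 3.77 in untreated wild-type libraries. Of the 9 tested, 5 were higher with RA in GLP 3A and 6 in wild type, beside 32.3% and 33.7% of all tested genes. Of the 12 listed, 6 to 10 were at 1 RPKM or more in RA-treated libraries and 0 or 1 in untreated ones. The filter thus favoured markers higher with RA, and this count is a description. Afp was at 0 in some libraries of both conditions. The part of such cells in the laminin values was not tested, and in bulk RNA fewer cells of a type and less RNA per cell cannot be told apart.

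The other laminin α chains went different ways. Lama5, an α chain of most adult basement membranes, was the most abundant α chain in 7 of the 8 libraries, at 48.2 to 63.8 RPKM in the RA-treated and 42.5 to 50.5 RPKM in the untreated libraries. Its differences were not called, at 0.27 ± 0.11 (adjusted p = 0.0598) in GLP 3A and 0.20 ± 0.11 (adjusted p = 0.143) in wild type. Lama4, an α chain of blood vessel, muscle and nerve basement membranes, had 1.06 and 1.67 RPKM in RA-treated GLP 3A cells, 1.09 and 0.718 in RA-treated wild-type cells, 0.105 and 0.0424 in untreated GLP 3A cells and 0.123 and 0.110 in untreated wild-type cells, with differences of 1.13 ± 0.17 (adjusted p = 0.00111) in GLP 3A and 0.76 ± 0.17 (adjusted p = 0.00635) in wild type; quantile normalization ended the wild-type call (adjusted p = 0.0776). Lama3 (mm9 chr18:12492532-12741521), the α chain of the laminin of skin and other epithelia, had 1.04 and 0.654 RPKM in RA-treated GLP 3A cells, 0.217 and 0.104 in RA-treated wild-type cells, 5.79 and 6.03 in untreated GLP 3A cells and 1.54 and 1.41 in untreated wild-type cells. Within each genotype the RA-treated libraries were under the untreated ones, and within each condition the GLP 3A libraries were above the wild-type ones. It fell by 1.91 in GLP 3A and 1.09 in wild type (SE 0.13 in each, adjusted p = 5.1e-05 and 0.000468). Its partner Lamb3, a β chain of epithelial laminin, was not called with RA, at 1.16 to 1.98 RPKM in the RA-treated and 0.936 to 1.49 RPKM in the untreated libraries.

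**Figure D4:**
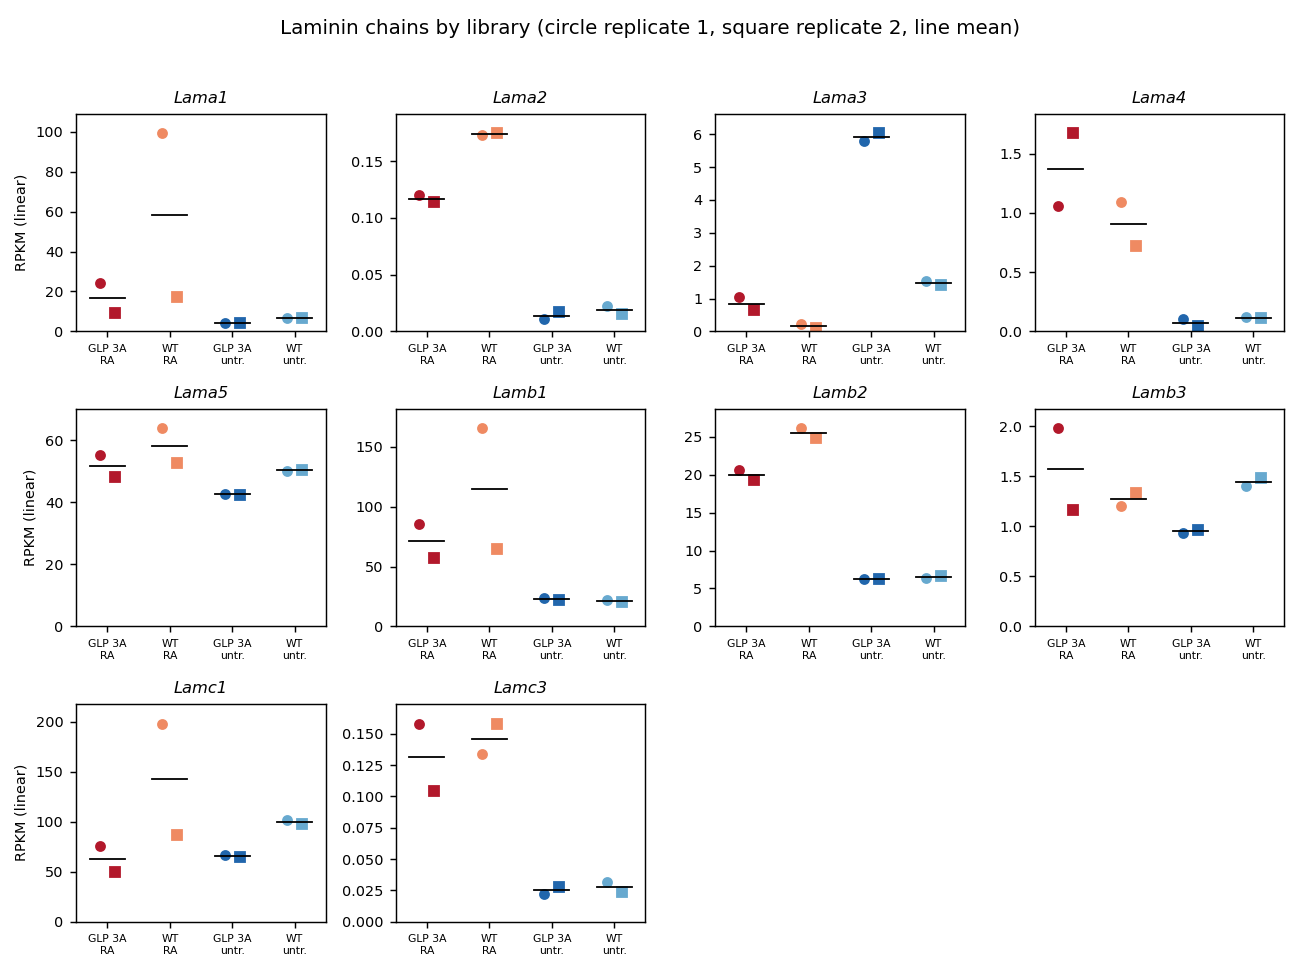
RPKM of 10 laminin chains (y axis, linear, from 0) in each library by group; circles are replicate 1, squares replicate 2 and lines group means, and Lama2 and Lamc3 were not tested. RA-treated wild-type replicate 1 is the highest library for Lama1, Lamb1 and Lamc1, and Lama3 is highest in the 2 untreated GLP 3A libraries.

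Genes that work with integrins and laminins were read from lists, whose medians are given beside the all-gene medians above. Of all tested genes, 70.4% were called in GLP 3A, 32.3% higher and 38.1% lower. In wild type 68.5% were called, 33.7% higher and 34.8% lower. Counts of called genes in the lists are not read as a property of a list. Of 16 tested basement membrane partners of laminins, 12 were higher and 0 lower in GLP 3A and 11 higher and 1 lower in wild type. At an unadjusted p under 0.05 in limma there were 13 in GLP 3A, in either direction, with no share of all genes taken at that threshold. Median differences were 1.32 in GLP 3A and 1.35 in wild type. Each RA-treated library had 15 of the 19 listed genes at 1 RPKM or more and each untreated one 9. The filter therefore favoured genes higher with RA, and these directions are a description. Both collagen IV chains were among the largest: Col4a2 differed by 4.09 ± 0.68 in GLP 3A and 4.81 ± 0.68 in wild type, and Col4a1 by 3.87 ± 0.77 and 4.64 ± 0.77. Tinagl1, a matrix glycoprotein, differed by 4.64 ± 0.38 and 3.98 ± 0.38, and Smoc2, a calcium-binding matrix protein, by 3.19 ± 0.29 and 3.88 ± 0.29. Nid1, nidogen, which links the laminin γ1 chain to collagen IV, was not called, at -0.43 ± 0.18 (adjusted p = 0.0792) in wild type.

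Of 18 tested genes of other integrin ligands, 12 were higher and 3 lower in each genotype, with median differences of 1.70 in GLP 3A and 1.55 in wild type. Over all tested genes, 32.3% were higher and 38.1% lower in GLP 3A and 33.7% and 34.8% in wild type. Of the 24 listed, 17 or 18 were at 1 RPKM or more in RA-treated libraries and 9 or 10 in untreated ones. Here too the filter favoured genes higher with RA. Fbn2, fibrillin, differed by 4.52 ± 0.12 in GLP 3A and 4.90 ± 0.12 in wild type, Thbs1, thrombospondin, by 3.75 ± 0.13 and 4.68 ± 0.13, and Cyr61, a matricellular protein, by 3.41 ± 0.09 and 4.33 ± 0.09. Spp1, osteopontin and a ligand of αv integrins, fell by 3.86 (SE 0.47) in GLP 3A and 5.16 (SE 0.47) in wild type. Ctgf was not called, at 0.47 ± 0.37 (adjusted p = 0.304) in wild type. Fn1 and Npnt were named after their values were seen, as ligands of receptors described above. Fn1, fibronectin, the ligand of the receptor containing the Itga5 chain, had 128 and 95.9 RPKM in RA-treated GLP 3A cells, 133 and 114 in RA-treated wild-type cells, 196 and 210.1 in untreated GLP 3A cells and 310.1 and 297 in untreated wild-type cells, and fell by 0.87 in GLP 3A and 1.29 in wild type (SE 0.15 in each, adjusted p = 0.00206 and 0.000392). Quantile normalization ended the GLP 3A call on Fn1 (difference -0.34, adjusted p = 0.134). Npnt, nephronectin, the ligand of the receptor containing the Itga8 chain, had 27.0 and 29.0 RPKM in RA-treated GLP 3A cells, 26.6 and 22.7 in RA-treated wild-type cells, 0.947 and 0.752 in untreated GLP 3A cells and 0.524 and 0.584 in untreated wild-type cells, with differences of 3.97 ± 0.11 and 4.04 ± 0.11.

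Of 11 membrane partners, laminin receptors that are not integrins and tetraspanins among them, 8 were higher and 3 lower in each genotype. The shares over all tested genes were 32.3% higher and 38.1% lower in GLP 3A and 33.7% and 34.8% in wild type. Cd151, a tetraspanin that binds the α3β1 and α6 integrins, was higher with RA by 2.25 ± 0.13 in GLP 3A and 2.36 ± 0.13 in wild type, while the tetraspanin Cd9 fell by 1.88 and 2.08 (SE 0.28 in each). The syndecans Sdc2 and Sdc3, heparan sulfate proteoglycans, differed by 1.26 ± 0.36 and 2.45 ± 0.19 in GLP 3A and 3.10 ± 0.36 and 2.15 ± 0.19 in wild type. The GLP 3A call on Sdc2 ended without either untreated GLP 3A library (adjusted p = 0.0703 and 0.0744). Its value was 0.72 when RA-treated GLP 3A replicate 2 was left out (adjusted p = 0.049). Dag1, dystroglycan, a laminin receptor named after its values were seen, differed by 1.33 ± 0.14 and 1.67 ± 0.14. Of 6 genes that glycosylate dystroglycan for laminin binding, 5 were higher in each genotype, Large by 1.27 ± 0.14 in GLP 3A and 1.14 ± 0.14 in wild type; Pomt1 was not called.

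Inside the cell, 17 of 27 tested adhesion complex genes were higher and 5 lower in GLP 3A, and 16 higher and 5 lower in wild type. Median differences were 0.64 in GLP 3A and 0.51 in wild type. Beside this list, all tested genes were 32.3% higher and 38.1% lower in GLP 3A and 33.7% and 34.8% in wild type. Parva, a parvin that binds integrin-linked kinase, differed by 3.89 ± 0.08 in GLP 3A and 4.35 ± 0.08 in wild type, and Ilk, that kinase itself, by 2.36 ± 0.13 and 2.24 ± 0.13. The LIM proteins Tgfb1i1 and Zyx differed by 3.81 ± 0.17 and 2.87 ± 0.13 in GLP 3A and by 3.67 ± 0.17 and 2.73 ± 0.13 in wild type. Src was not called. Of the 5 tested hemidesmosome genes, a list that includes Itga6, Itgb4 and Cd151 given above, 2 were higher and 2 lower in GLP 3A and 1 higher and 2 lower in wild type. Dst, a cytoskeletal linker, fell by 0.91 in GLP 3A and 0.96 in wild type (SE 0.10 in each).

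Markers of cells known for particular members were read beside them. Among all tested genes, 32.3% were higher with RA and 38.1% lower in GLP 3A, and 33.7% and 34.8% in wild type. Beside Itgal and Itgb7, Ptprc, the defining leukocyte gene, was at 0 in 6 of the 8 libraries and at most 0.0190 RPKM, and Cd53 and Tyrobp were at most 0.235 RPKM. The 8 leukocyte genes summed to 12.1 to 32.2 RPKM in the RA-treated and 125 to 129 RPKM in the untreated libraries, of which Laptm5 was 95.1 to 110 RPKM in the untreated ones; of 4 tested, 1 was higher and 3 lower with RA in each genotype. Beside Itga2b and Itgb3, the platelet genes Pf4 and Gp9 were at most 0.643 RPKM, while Ppbp had 44.6 and 21.9 RPKM in RA-treated GLP 3A cells, 6.81 and 11.2 in RA-treated wild-type cells, 0 and 0.208 in untreated GLP 3A cells and 0 and 0.184 in untreated wild-type cells. Beside Itgb4 and Lama3, 0 of 4 stratified epithelium genes were tested, and their sum was at most 1.77 RPKM. Beside Itga7, Itga8 and Lama4, the 6 muscle genes summed to 1948 and 1245 RPKM in RA-treated GLP 3A and 933 and 1318 in RA-treated wild-type libraries, against 15.3 to 22.5 RPKM in untreated ones, and all 5 tested were higher in each genotype. The 10 fibroblast genes summed to 89.3 to 144 RPKM in the RA-treated and 5.11 to 6.79 RPKM in the untreated libraries, with 7 of 8 tested higher and 1 lower in each genotype. Of these 10, 7 or 8 were at 1 RPKM or more in RA-treated libraries and 1 or 2 in untreated ones, so the filter favoured a rise. Lum, one of these 10, was at 0 in all untreated libraries. The 5 endothelial genes summed to 4.63 to 10.4 RPKM in the RA-treated and 23.7 to 32.9 RPKM in the untreated libraries, with 2 of 4 tested higher and 2 lower in each genotype. The 5 neural genes summed to 61.5 to 81.2 RPKM in the RA-treated and 29.4 to 51.0 RPKM in the untreated libraries, with 2 of 5 tested higher and 2 lower in GLP 3A and 3 higher and 2 lower in wild type. The 8 stem cell genes summed to 139 to 376 RPKM in the RA-treated and 4298 to 5259 RPKM in the untreated libraries, and all 8 fell in each genotype. The part of such cells in the members' values was not tested.

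Between genotypes, few members differed. In untreated cells, 3 of the 24 tested were higher and 1 lower in GLP 3A, where 11.7% of all genes were called, 7.52% higher and 4.15% lower. With RA, 2 were higher and 1 lower, where 10.6% were called, 5.30% higher and 5.31% lower. The members' median difference, GLP 3A minus wild type, was -0.01 untreated and 0.11 with RA, beside 0.04 and -0.01 over all genes. Counts of 4 and 3 in 24 are not read as a property of the set. The genotype difference of all tested genes had a median of -0.24 untreated and -0.31 with RA on chromosome 1, which carries Lamb3 and Lamc1, and of 0.24 in both conditions on chromosome 11, which carries Itga2b, Itga3, Itgae, Itgb3 and Itgb4.

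Lama3 was higher in GLP 3A cells in both conditions. With RA the difference was 0.66 ± 0.13 (adjusted p = 0.031) and in untreated cells 1.48 ± 0.13 (adjusted p = 0.00267), ratios of mean RPKM of 5.28 and 4.0. The untreated call was kept without each library in turn and under every other setting in which it was fitted. The call with RA ended without any 1 of 7 libraries, all but RA-treated GLP 3A replicate 2 (adjusted p = 0.0654 to 0.110), after quantile normalization (0.112), and in a fit of the 4 RA-treated libraries alone (0.217). The call with RA ended as well with no filter on low values and with the filter of 5 RPKM. With each library's chromosomes centred, the Lama3 difference was 0.71 with RA (adjusted p = 0.0463) and 1.45 untreated (0.00467).

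Among untreated cells, Itga1 was higher in GLP 3A by 1.01 ± 0.13 (adjusted p = 0.00884), from the values given above. Itga1 reached 1 RPKM in untreated GLP 3A libraries only, so the filter favoured this direction. That call ended without either untreated wild-type library (adjusted p = 0.0778 and 0.0675) and when untreated GLP 3A replicate 2 was left out (0.0721). Pelo, which overlaps it, had 29.0 and 26.4 RPKM in untreated GLP 3A and 22.9 and 23.4 in untreated wild-type libraries. Itgal was higher by 0.43 ± 0.10 (adjusted p = 0.0398) and Itga6 lower, at -0.38 ± 0.08 (adjusted p = 0.0283). Each of these 2 calls ended without any 1 of the 4 untreated libraries, with adjusted p up to 0.230 for Itgal and 0.185 for Itga6; that on Itgal also ended without RA-treated wild-type replicate 2 (0.0514). The call on Itgal also ended with pseudocounts of 0.1 and 0.5 (adjusted p = 0.155 and 0.0577) and under median-of-ratios (0.0539) and quantile (0.0818) scaling. With chromosomes centred it ended as well (difference 0.38, adjusted p = 0.0635). Itga5, at -0.70 ± 0.18 (adjusted p = 0.0602), Itga9, at -0.40 ± 0.12 (adjusted p = 0.0789), and Itgb4, at -0.46 ± 0.18 (adjusted p = 0.149), were below wild type in both untreated GLP 3A libraries without being called. All 3 were called in the 4 untreated libraries alone (adjusted p = 0.00723 for Itga5, 0.0239 for Itga9 and 0.0194 for Itgb4). That fit called 3450 of all 13198 tested genes, against 1541 in the main fit. Itga5 was also called with robust empirical Bayes (0.0451). Both Itga5 (0.00395 and 0.00374) and Itgb4 (0.0239 and 0.0231) were called without either RA-treated GLP 3A library.

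With RA, Itgb4 was higher and Lamb2 lower in GLP 3A. The difference of Itgb4 was 0.90 ± 0.18 (adjusted p = 0.0317) and that of Lamb2 -0.34 ± 0.07 (adjusted p = 0.0366), and for both genes the 2 genotypes did not overlap. Galk1, whose locus overlaps that of Itgb4, had 80.2 and 73.8 RPKM in RA-treated GLP 3A and 90.3 and 78.7 in RA-treated wild-type libraries. With no filter on low values the call on Itgb4 ended. The call on Itgb4 ended without any 1 library other than the 2 of RA-treated GLP 3A cells (adjusted p = 0.0773 to 0.116), and that on Lamb2 without any 1 of the 8 (0.0565 to 0.124). With chromosomes centred both calls ended, Itgb4 at 0.64 (adjusted p = 0.0962) and Lamb2 at -0.34 (0.0592), and in the 4 RA-treated libraries alone neither was called (0.219 and 0.235). Lama1 and Lamc1 had lower means in RA-treated GLP 3A, with differences of -1.42 ± 0.80 (adjusted p = 0.288) and -1.09 ± 0.38 (adjusted p = 0.121), not called. For Lamb1 the value was -0.56 ± 0.42 (adjusted p = 0.422), and 0.11 without RA-treated wild-type replicate 1. Itga3, at 0.69 ± 0.22 (adjusted p = 0.0959), Itgb3, at 0.61 ± 0.17 (adjusted p = 0.0698), Itga7, at 0.49 ± 0.14 (adjusted p = 0.0813), and Itgal, at 0.39 ± 0.10 (adjusted p = 0.0534), were higher in both RA-treated GLP 3A libraries than in both wild-type ones and were not called; with chromosomes centred the Itga3 value was 0.42.

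**Figure D5:**
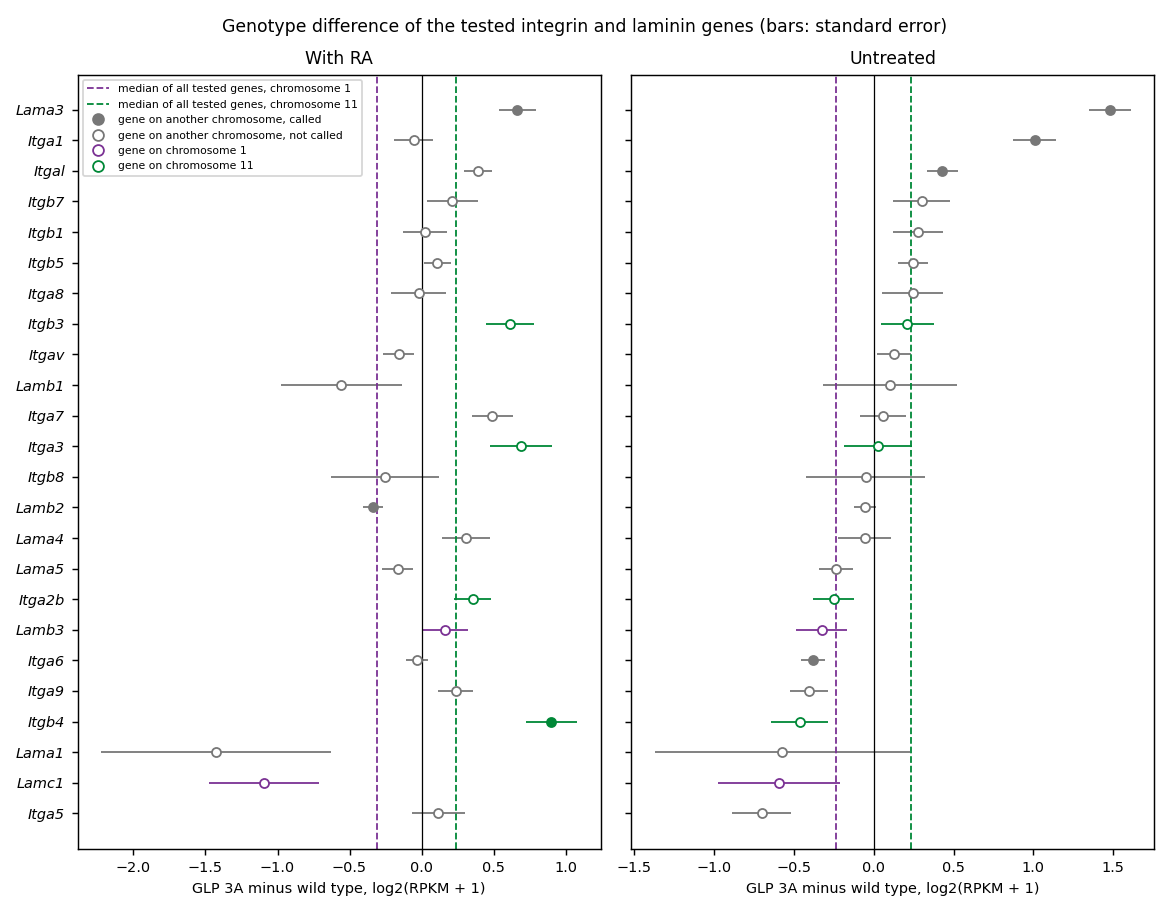
Genotype difference, GLP 3A minus wild type, of the 24 tested members on the log2(RPKM + 1) scale (x axis), with RA (left) and untreated (right); bars are standard errors, filled points are called, and dashed lines are the medians of all tested genes on chromosomes 1 and 11. Lama3 is called in both panels, and Itgb4, the one called member on these 2 chromosomes, lies on the same side of 0 as its chromosome's median.

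Whether the genotypes differed in their response to RA was tested directly. None of the 24 members was called for the difference of responses, where 1.80% of all genes were, 0.561% higher and 1.24% lower in GLP 3A. At an unadjusted p under 0.05 in limma there were 8 members. No share of all genes at that threshold was taken, so this count is not read as a property of the set. With robust empirical Bayes, limma called 1 higher and 1 lower. That fit called 362 of all 13198 tested genes, against 238 in the main fit. The nearest to the threshold were Itga1, at -1.06 ± 0.19 (adjusted p = 0.0528), Itgb4, at 1.36 ± 0.25 (adjusted p = 0.0561), and Lama3, at -0.82 ± 0.18 (adjusted p = 0.0822). Itga1 reached 1 RPKM in untreated GLP 3A libraries only, so the filter favoured a fall with RA in that genotype. The values of Itga5 and Itga9 were 0.82 ± 0.26 (adjusted p = 0.156) and 0.64 ± 0.17 (adjusted p = 0.107). The calls made in 1 genotype only, for Itga7, Itgb4 and Lama1, are therefore not shown to differ between genotypes by this fit. For Itgb4 the difference of responses was called, at 1.36, with a replicate block (adjusted p = 0.0478) and with robust empirical Bayes (0.0382). It was called at 1.09 and 1.64 without either RA-treated GLP 3A library (0.0314 and 0.0083). That of Itga1 was called with robust empirical Bayes (0.0394), with no intensity trend (0.0392) and without RA-treated GLP 3A replicate 2 (0.0464). That of Lama3 was called without RA-treated GLP 3A replicate 1 (0.0451).

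Few genes of the related lists differed by genotype. Sparc, a collagen-binding matrix protein on chromosome 11, had 485 and 538 RPKM in RA-treated GLP 3A cells, 612 and 485 in RA-treated wild-type cells, 262 and 242 in untreated GLP 3A cells and 91.6 and 79.6 in untreated wild-type cells. The RA-treated groups overlapped, while untreated GLP 3A was above untreated wild type by 1.55 ± 0.14 (adjusted p = 0.00267), and the difference of responses was -1.64 ± 0.19 (adjusted p = 0.0221). Cyr61 was higher in untreated GLP 3A by 0.81 ± 0.09 (adjusted p = 0.00453), with a difference of responses of -0.93 ± 0.12 (adjusted p = 0.0306). Sdc2 was higher in untreated GLP 3A by 1.60 ± 0.36 (adjusted p = 0.0404), and Tns1, a tensin on chromosome 1, was lower, at -0.80 ± 0.10 (adjusted p = 0.00709). The untreated call on Sdc2 and the calls on the responses of Sparc and Cyr61 ended with no filter and after quantile normalization. Centring chromosomes also ended those on Sdc2 and Cyr61, and robust empirical Bayes that on Sdc2. The difference of responses of Sparc lost its call when RA-treated wild-type replicate 1 was left out (adjusted p = 0.0570) or without any 1 untreated library (0.112 to 0.148), and that of Cyr61 without either RA-treated wild-type library (0.0780 and 0.0837) or any 1 untreated library (0.155 to 0.166). The untreated call on Cyr61 ended without wild-type replicate 1 (0.0523) or GLP 3A replicate 2 (0.0516), on Sdc2 without any 1 untreated library (0.176 to 0.191), and on Tns1 without either wild-type library (0.0702 and 0.0732) or GLP 3A replicate 1 (0.0647).

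With RA, Col4a6, a collagen IV chain, was higher in GLP 3A by 1.50 ± 0.19 (adjusted p = 0.0121), with 1.84 and 3.22 RPKM against 0.194 and 0.248 RPKM in wild type. Those GLP 3A values were enough by themselves to pass the filter, which may therefore have favoured this direction. Spp1 was higher by 2.08 ± 0.47 (adjusted p = 0.0434) and Ptk2b, a kinase related to focal adhesion kinase, by 1.12 ± 0.17 (adjusted p = 0.019). Ltbp1, which holds latent TGF-β in the matrix, was lower at -0.52 ± 0.11 (adjusted p = 0.0358), Sdc1, a syndecan, at -0.53 ± 0.11 (adjusted p = 0.0332) and Parva at -0.56 ± 0.08 (adjusted p = 0.0147). None of these calls was kept in the 4 RA-treated libraries alone, where 15 of all 13198 tested genes were called. With no filter on low values those on Spp1, Ptk2b, Ltbp1 and Sdc1 ended. That on Spp1 also ended with chromosomes centred and with robust empirical Bayes, and that on Ltbp1 with a pseudocount of 0.1. Without 1 RA-treated wild-type library each of these 6 calls ended, at adjusted p of 0.0556 and 0.0521 for Col4a6, 0.106 and 0.155 for Spp1, 0.0691 and 0.0779 for Ptk2b, 0.0753 and 0.129 for Ltbp1, 0.0887 and 0.12 for Sdc1 and 0.0582 and 0.0618 for Parva, for replicates 1 and 2 left out in turn. The calls on Spp1, Ptk2b, Ltbp1 and Sdc1 also ended without any 1 untreated library (0.0552 to 0.0950), and those on Ltbp1 (0.0976) and Sdc1 (0.0684) without RA-treated GLP 3A replicate 1. Spp1 was at 1.29 (adjusted p = 0.0317) when that library was left out.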

How the data were processed

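RNA-seq of 8 libraries was used, 2 in each of 4 groups; the other 32 samples of the series' 40 are not used here. The authors deposited RPKM per gene symbol, per the file headers. Tools listed in the submitters' processing notes are TopHat, Cufflinks, SAMtools and Bowtie 0.12.7, and the build is mm9; per the labels' protocols, RNA was extracted with Trizol, treated with DNase and sequenced single-end. The sources used here give neither strandedness nor the handling of reads in overlapping genes. The files hold no read counts, so depth is known only as a rough estimate from the steps between low RPKM values (at or under 0.15 RPKM, matched within 1.5% to ratios of whole numbers up to 4). Each file lists 23234 symbols, and 12 that some files lack were dropped.

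Values were tested as log2(RPKM + 1) with limma 3.58.1 in R 4.3.3: 4 group means over all 8 libraries, a prior variance that follows intensity (empirical Bayes), two-sided moderated tests, and Benjamini-Hochberg adjustment over the 13198 genes at 1 RPKM or more in at least 2 libraries, for 5 comparisons. The fit was tested on simulated data. Of the genes the name rule takes, 1 is not reported here, nor is 1 gene of the lists; both stayed in the fit. The members and lists were chosen with earlier results of these data known. Library values are given for members called with an absolute log2 difference of 1 or more in any comparison and for Itgb1, Itga6, Itgav, Lamb1 and Lamc1; from each related list up to 4 called and 2 uncalled genes by their RA difference in wild type and up to 4 called by genotype were eligible. Alternatives tried were pseudocounts of 0.1 and 0.5, low-value filters of 5 RPKM and none, scaling by median of ratios or quantiles, centring by chromosome, no trend, robust empirical Bayes, fits of the 4 libraries concerned, a replicate block, each library left out and, added after seeing the data, only replicate 2 of the RA-treated groups.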

Additional observations from a re-analysis of the deposited data

How the results depend on the processing

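Of the members called, 16 of 20 in GLP 3A and 16 of 19 in wild-type cells with RA kept their call without each library in turn, as did 1 of 4 between untreated genotypes (Lama3) and 0 of 3 between RA-treated ones; the same 16, 14, 1 and 0 kept it in all settings. The counts below are members higher and lower. With each library left out in turn, they ranged over 11 to 16 and 5 to 6 for RA in GLP 3A, 11 to 15 and 5 to 5 for RA in wild type, 1 to 3 and 0 to 3 for genotype untreated, 0 to 5 and 0 to 1 for genotype with RA, and 0 to 4 and 0 to 1 for the difference of responses. The filter of 5 RPKM, which tested 13 members, gave 6 and 4 for RA in GLP 3A, 7 and 4 in wild type, 1 and 1 for genotype untreated and 0 and 1 with RA. The 4 libraries of a comparison alone gave 6 and 8 for genotype untreated and 0 and 0 with RA. Of all 13198 tested genes, those fits called 3450 untreated and 15 with RA, against 1541 and 1401 in the main fit. A pseudocount of 0.1 and robust empirical Bayes each gave 2 lower for genotype untreated. Centring by chromosome gave 1 higher and 0 lower with RA; quantile normalization gave 1 higher with RA, and no filter 2 lower with RA and 1 higher for the difference of responses. For that difference, no intensity trend gave 1 lower, and robust empirical Bayes 1 and 1. Those fits called 291 and 362 of all tested genes, against 238 in the main fit. With only replicate 2 of the RA-treated groups, chosen after seeing the data, counts were 16 and 6 for RA in GLP 3A, 14 and 6 in wild type, 6 and 8 for genotype untreated, 4 and 2 with RA, and 3 and 1 for the difference of responses. Over all tested genes, that fit also made more calls than the main fit for genotype untreated and for the difference of responses. For genotype with RA it made fewer. The cause was not tested.

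Values that changed sign were those of Itga1 with RA in wild type (-0.0396 after quantile normalization), Lamc1 with RA in wild type (-0.21 without RA-treated wild-type replicate 1 and with only replicate 2, adjusted p = 0.491 and 0.0262; -0.21 to 0.98 over the libraries left out) and Lamb1 for genotype with RA (0.11 without RA-treated wild-type replicate 1; -1.23 to 0.11 over the libraries left out). Of all genes called between untreated genotypes, 64.4% were higher in GLP 3A, against 50.1% with median-of-ratios scaling, 54.0% after quantile normalization and 53.0% with chromosomes centred.

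The groups share the replicate numbers 1 and 2, and deviations of same-numbered libraries correlated at 0.17 to 0.36 across 13198 genes in the 6 pairs of groups. With 2 numbers, and labels that tie them to no shared batch, the libraries were not treated as paired. The replicate block gave 15 and 6 members for RA in GLP 3A, 13 and 5 in wild type, 3 and 1 for genotype untreated, 3 and 1 with RA, and 1 and 0 for the difference of responses; it ended the call on Itga1 with RA in wild type (adjusted p = 0.0581) and made those on Itgb4 for the difference of responses (0.0478), Itgb3 for genotype with RA (0.0486), Lama5 with RA in GLP 3A (0.0369), and Nid1 and Src with RA in wild type (0.0246 and 0.0174).

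With 2 libraries a group and no read counts, the precision of low RPKM values is unknown, and values of members under about 1 RPKM, such as Itga1 and Itgb8, rest on few reads in the shallower replicate 2 libraries.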
